A study of Mus musculus with 6 samples.

Results

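The mitosis and spindle genes are 46 genes picked by name that encode the kinases, motors, checkpoint proteins, kinetochore subunits and condensins of cell division, and all 46 were found among the 16440 genes of the expression table. They were compared between 3 RNA-seq libraries of normal myeloid progenitors (MPs) and 3 of c-Kit+ acute promyelocytic leukemia (APL) progenitors, both from FVB N/J mice and neither treated. The MPs were bone marrow (BM) cells of normal mice, sorted for c-Kit and against lineage markers and Sca-1 (Lin-Sca-1-c-Kit+), which removes mature cells and stem cells and leaves a mixture of myeloid, megakaryocytic and erythroid progenitors. The APL cells came from hMRP8-PML/RARα transgenic mice, in which the human MRP8 promoter drives the fusion gene in myeloid cells, were marked with GFP by the retroviral vector MigR1, grew in syngeneic recipients and were sorted as GFP+ c-Kit+ cells, whereas the MPs carried neither the transgene nor the vector. The labels call the 3 libraries of a group biological replicates and give neither the age of the mice nor which mouse each library came from, so the P-values measure the spread between these libraries.

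Mitosis begins when cyclin B with Cdk1, helped by the Plk and Aurora kinases and the Cdc25 phosphatases, drives chromosome condensation and spindle assembly. Kinetochores built on Cenpa chromatin then attach chromosomes to microtubules, the spindle checkpoint holds back the anaphase-promoting complex until every chromosome is attached, and Cdc20 and separase then release the sister chromatids before cytokinesis. Most of these genes are transcribed in G2 and M phase and are nearly silent in resting cells, so in a blood progenitor pool their mRNA tracks cells in the late cell cycle. In a bulk library, fewer cells in G2 and M phase and less of these mRNAs per dividing cell cannot be told apart.

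Of the 46 genes, 26 were lower in c-Kit+ APL progenitors, 19 of them by less than 1.5-fold. Summed over the 46 genes, the FPKM (fragments normalized for library size and for how long the transcript is) was 1653, 1699 and 1805 in MP 1 to MP 3 and 1398, 1414 and 1401 in APL 1 to APL 3. The lowest normal library was thus above the highest leukemic one, with means of 1719 ± 77.9 and 1404 ± 8.5 (SD, n = 3 each). Cenpa, the centromeric histone H3 variant, fell the most, to 0.49 of its normal level, and Cdc25b, a phosphatase that activates Cdk1, rose 1.70-fold. The scale of all fold changes here is log2(scaled fragments + 1), where a scaled fragment is the deposited fragment estimate of a gene after the authors' scaling of each library.

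All 46 genes passed the filter on low values, with means over the 6 libraries between 373.8 and 17492 scaled fragments. By limma, with P-values adjusted by Benjamini-Hochberg across the 14595 genes tested, 26 of the 46 (56.5%) were downregulated and 2 (4.35%) upregulated at an adjusted P under 0.05, where 37.3% of all genes tested were lower and 29.7% higher. Centring each gene on the median of its chromosome gave 19 lower and 7 higher: Nek2, Cdc25c, Bub1b, Cdc20, Kif11, Nuf2, Tpx2 and Ncapg lost their call (adjusted P between 0.0503 and 0.516), Espl1 was called lower, and Ttk, Kif2c, Ndc80, Ect2 and Smc4 were called higher. With a fold change over 1.5 as a further condition, 7 genes (15.2%) were downregulated, namely Ccnb2, Birc5, Cenpa, Spc24, Nusap1, Top2a and Ncaph, and Cdc25b alone was upregulated, against 24.4% of all genes lower and 21.7% higher. These genes are well expressed, and among the 8758 genes with a mean of at least 300 scaled fragments the shares were 37.1% lower and 32.2% higher at any fold, and 16.9% lower and 19.6% higher over 1.5-fold. Without the chromosome centring, the share called lower was thus above the background at any fold. Over 1.5-fold that share was near that of the genes with a mean of at least 300. With the centring, the share of all genes called at any fold was not computed. Its 19 lower and 7 higher members therefore have no background here.

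The 46 genes had a median log2 fold change of -0.27 (quartiles -0.51 and -0.06), where that of all genes tested was -0.10 and that of the genes with a mean of at least 300 was -0.06 with quartiles -0.43 and 0.42. Of the 46, 37 lay below 0 (80.4%) and 33 below the median of all genes. In 29 genes (63.0%) every APL library was below every MP library, where 39.8% of all genes did so, and in 5 (10.9%) every APL library was above, where 31.1% did so. In the other 12 the groups overlapped.

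**Figure D1:**
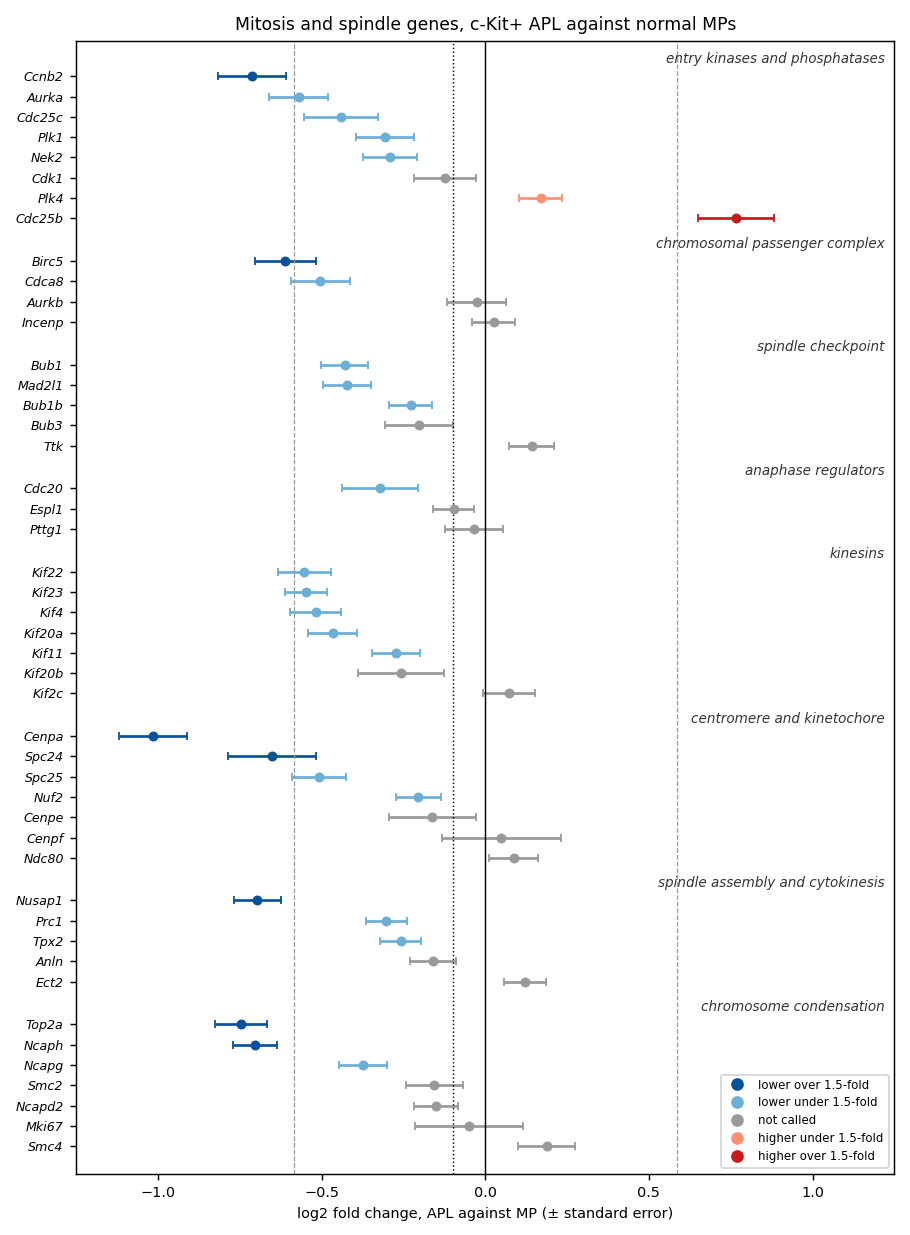
The log2 fold change of each of the 46 genes, APL against MP, with its standard error as the bar, grouped by role and coloured by call. The dotted line marks the median of all genes tested (-0.10), the dashed lines mark a 1.5-fold change, and 37 of the 46 points lie left of 0, with Cenpa at -1.02 and Cdc25b at 0.76 as the extremes.

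**Figure D2:**
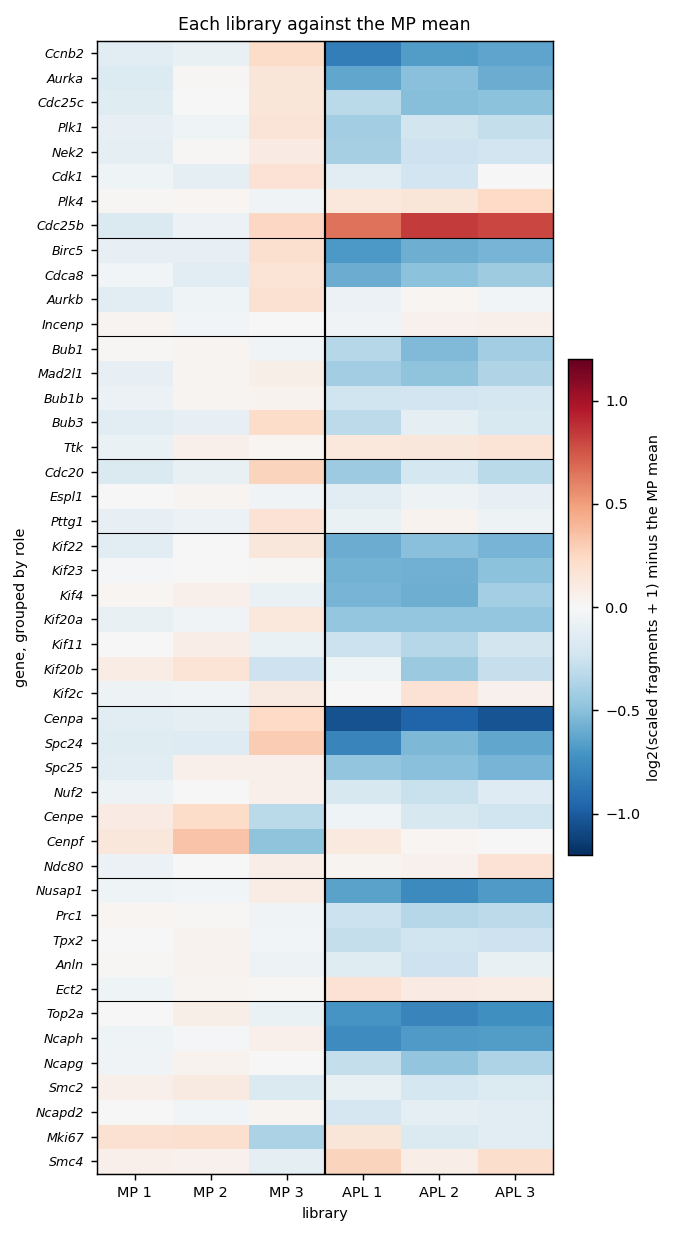
Each gene (rows, grouped by role) in each library (columns) as log2(scaled fragments + 1) minus the mean of the 3 MP libraries, blue below and red above that mean. The APL columns are blue in most rows, with red for Cdc25b and pale red for Plk4, Ttk, Ect2 and Smc4, and MP 3 departs from MP 1 and MP 2 in both directions.

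Promoters of late cell cycle genes are known for CCAAT boxes and for the cell cycle genes homology region (CHR). The windows below are the bases before the transcription start of 6 members, from RefSeq on GRCm38.p6, 5′ to 3′ on the gene's strand, with matches on either strand in capitals. The motifs marked are the CCAAT box, which reads ATTGG where it lies on the other strand, the CHR letters TTTGAA, which then read TTCAAA, and the CHR variant spelled TTTAAA. They are shown because, among members with a window given, the first 3 had the largest decreases and the last 3 the largest positive differences. The windows are those of Cenpa (chr5:30666636-30666885, + strand), Top2a (chr11:99024190-99024439, - strand), Ccnb2 (chr9:70421555-70421804, - strand), Cdc25b (chr2:131186698-131186947, + strand), Plk4 (chr3:40799701-40799950, + strand) and Ttk (chr9:83834439-83834688, + strand).
Cenpa: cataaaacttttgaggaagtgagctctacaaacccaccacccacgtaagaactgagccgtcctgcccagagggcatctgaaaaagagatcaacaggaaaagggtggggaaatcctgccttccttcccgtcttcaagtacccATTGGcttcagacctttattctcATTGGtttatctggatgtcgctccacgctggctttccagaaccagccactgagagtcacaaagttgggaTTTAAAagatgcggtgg
Top2a: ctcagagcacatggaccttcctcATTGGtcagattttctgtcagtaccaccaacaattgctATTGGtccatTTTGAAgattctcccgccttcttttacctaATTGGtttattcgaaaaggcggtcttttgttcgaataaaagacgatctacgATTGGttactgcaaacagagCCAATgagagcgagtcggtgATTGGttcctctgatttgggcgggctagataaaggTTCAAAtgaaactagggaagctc
Ccnb2: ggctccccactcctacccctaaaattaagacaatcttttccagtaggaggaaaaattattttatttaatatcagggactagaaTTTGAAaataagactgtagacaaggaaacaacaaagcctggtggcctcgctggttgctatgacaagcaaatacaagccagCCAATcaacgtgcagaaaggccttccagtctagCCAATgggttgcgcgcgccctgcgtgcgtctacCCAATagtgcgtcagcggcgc
Cdc25b: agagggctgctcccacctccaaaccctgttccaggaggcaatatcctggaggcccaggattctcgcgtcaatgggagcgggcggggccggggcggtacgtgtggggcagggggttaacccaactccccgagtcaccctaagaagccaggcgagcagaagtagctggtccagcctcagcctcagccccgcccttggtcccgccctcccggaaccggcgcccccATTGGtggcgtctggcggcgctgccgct
Plk4: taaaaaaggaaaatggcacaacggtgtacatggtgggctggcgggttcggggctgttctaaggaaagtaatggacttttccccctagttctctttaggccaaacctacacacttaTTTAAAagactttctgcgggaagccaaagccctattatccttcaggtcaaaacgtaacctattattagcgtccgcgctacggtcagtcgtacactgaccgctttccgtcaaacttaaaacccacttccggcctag
Ttk: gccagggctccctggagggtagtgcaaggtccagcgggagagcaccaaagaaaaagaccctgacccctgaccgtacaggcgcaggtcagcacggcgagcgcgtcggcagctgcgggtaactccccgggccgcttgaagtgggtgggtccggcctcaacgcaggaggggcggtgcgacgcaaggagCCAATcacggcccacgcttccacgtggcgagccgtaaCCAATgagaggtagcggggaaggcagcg

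Counted from the base before the start, the Top2a window held 6 CCAAT matches, at 227, 189, 149, 98, 78 and 58 bases, with TTTGAA at 179 and its reverse at 23. The Ccnb2 window held 3 CCAAT matches, 87, 54 and 21 bases before the start, and 1 TTTGAA at 167, and the Cenpa window held 2, at 109 and 86, with TTTAAA at 17. The Cdc25b window had 1 CCAAT match, at 28 bases, and neither CHR spelling, the Plk4 window had only TTTAAA at 135, and the Ttk window had CCAAT at 65 and 28. The printed windows stop at the start. In the windows counted next, which run 50 bases further, Cenpa and Ttk each held 1 TTTGAA match and Ccnb2 held 2. A match is a run of letters and not a measured binding site.

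RefSeq windows of 250 bases before to 50 after the start were given for 39 of the 46 members, as 42 windows, and both strands were searched. CCAAT was present in 31 of the 42 windows (73.8%) and in 37.4% of all 32851 windows of that length. TTTGAA was also present in 31 (73.8%), against 17.9% of all, and TTTAAA in 21.4% against 13.2%. Both CCAAT and TTTGAA, which can share at most 1 base, were in 64.3% of member windows and 6.95% of all, and at least 2 CCAAT matches were in 47.6% and 11.7%. The E2F-type letters TTTGGCGC or TTTCGCGC were in 2 member windows (4.76%) and 0.81% of all. These letters did not divide the members by their response in a plain way: of the 22 downregulated members with a window 17 held CCAAT and 15 TTTGAA, and of the other 17 members 11 held CCAAT and 13 TTTGAA.

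The counts of each role below are to be read against the 37.3% of all genes tested that were lower and the 29.7% that were higher. Among the kinases and phosphatases of mitotic entry, 5 of 8 were downregulated and 2 upregulated, with a median log2 fold change of -0.30. Ccnb2, a B-type cyclin that activates Cdk1, had 2374, 2435 and 3016 scaled fragments in MP 1 to MP 3 and 1454, 1629 and 1670 in APL 1 to APL 3. All APL values lay below all MP values, a log2 fold change of -0.71 ± 0.10 (SE) with an adjusted P of 0.000294. Aurka, the spindle pole Aurora kinase (-0.57), Cdc25c, a Cdk1-activating phosphatase (-0.44), Plk1, which acts from entry through cytokinesis (-0.31), and Nek2, which separates the centrosomes (-0.29), were also downregulated. Without APL 1 the adjusted P of Plk1 was 0.0521. Cdk1 itself, the kinase on which entry depends, was at 3172, 3038 and 3701 in the MPs and 2988, 2814 and 3282 in the APL libraries. Its groups overlapped, and its log2 fold change of -0.12 did not pass the test (adjusted P = 0.274). With libraries scaled to the same total it was called lower (-0.25, adjusted P = 0.00984).

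Both upregulated members belong to this role. Cdc25b had 703.3, 753.1 and 942.4 scaled fragments in the MPs and 1247, 1423 and 1384 in the APL cells, with no overlap. Its log2 fold change was 0.76 ± 0.12 with an adjusted P of 0.000363, so the 2 Cdk1-activating phosphatases on the list moved in opposite directions. Plk4, which starts centriole duplication, was at 1926, 1937 and 1843 in the MPs and 2075, 2097 and 2246 in the APL cells. Its groups did not overlap, but the difference of 0.17 ± 0.07 was just past the threshold (adjusted P = 0.0483), was lost when any 1 library was left out (adjusted P between 0.0653 and 0.20), was lost with the library number as a block (0.0714), and was -0.03 with libraries scaled to the same total and MP 3 left out.

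The chromosomal passenger complex, which corrects faulty attachments and later guides cytokinesis, had 2 of 4 subunits downregulated. Birc5 (survivin), its localizing subunit and the most abundant of them per length (90.2 ± 11.1 FPKM in MPs and 61.2 ± 3.02 in APL), had 2432, 2437 and 2977 scaled fragments in the MPs and 1618, 1735 and 1764 in the APL libraries. The groups were well apart, with a log2 fold change of -0.61 ± 0.09 (adjusted P = 0.000366), and Cdca8 (borealin), which binds Birc5, fell by 0.51. The other pair gave no call. Aurkb, the kinase of the complex, was at 2431, 2572 and 3036 in MPs and at 2541, 2708 and 2605 in APL (log2 fold change -0.03, adjusted P = 0.806), and Incenp, its scaffold, at 4720, 4514 and 4620 and at 4491, 4790 and 4828 (0.03, adjusted P = 0.747). Both pairs of groups overlapped, and the sign of each turned under other scalings.

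Of the 5 spindle checkpoint genes, 3 were downregulated by modest amounts. Bub1, the kinase that recruits checkpoint proteins to kinetochores, had 2982, 3025 and 2862 scaled fragments in MPs and 2329, 2051 and 2208 in APL, with no overlap and a log2 fold change of -0.43 ± 0.07 (adjusted P = 0.000632). Mad2l1, the inhibitor of Cdc20, fell by 0.42 and Bub1b (BubR1), which binds Cdc20 with it, by 0.23, the latter with an adjusted P of 0.0515 when MP 2 was left out. Bub3, the adaptor of Bub1 and Bub1b and the most abundant of the 5 per length, was at 3533, 3608 and 4499 in MPs and 3100, 3572 and 3394 in APL. Those groups overlapped and the difference of -0.20 was not past the threshold (adjusted P = 0.116). Bub3 was called lower with libraries scaled to the same total (-0.33, adjusted P = 0.00527) and after quantile normalization (-0.29, adjusted P = 0.0202). Ttk (Mps1), the kinase at the head of the checkpoint, was at 1351, 1492 and 1449 in MPs and 1559, 1566 and 1603 in APL, all higher in APL, with a log2 fold change of 0.14 ± 0.07 that did not pass the test (adjusted P = 0.099) and was -0.03 with the libraries scaled to the same total and MP 3 left out.

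The anaphase regulators differed least. Cdc20, the activator of the anaphase-promoting complex, had 3181, 3367 and 4305 scaled fragments in MPs and 2653, 3091 and 2873 in APL, with no overlap. Its log2 fold change was -0.32 ± 0.12 (adjusted P = 0.0359), and the adjusted P was 0.113 without APL 1 and 0.0777 without APL 3. Its locus is shared with Elovl1, so fragments could have been divided between the 2 genes. Pttg1 (securin), the separase inhibitor, overlapped between MPs (1341, 1372 and 1619) and APL (1362, 1480 and 1376), at -0.03, and Espl1 (separase) was at -0.10 (adjusted P = 0.199). Espl1 lies on chromosome 15, whose genes had a median log2 fold change of 0.46.

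The kinesins had the largest median decrease, -0.47, with 5 of 7 downregulated. Kif22, a chromosome arm motor and the most abundant per length, had 2207, 2415 and 2651 scaled fragments in MPs and 1599, 1710 and 1637 in APL, with a log2 fold change of -0.55 ± 0.08 (adjusted P = 0.000314) and no overlap. The central spindle motors Kif23 (-0.55), Kif4 (-0.52) and Kif20a (-0.47) fell by similar amounts, and Kif11 (Eg5), which pushes the spindle poles apart, fell by 0.27. The locus of Kif20a also holds Brd8 and Cdc23. Kif20b, a late mitotic motor, was at 2927, 3075 and 2313 in MPs and 2657, 2017 and 2275 in APL, which overlapped (-0.26, adjusted P = 0.112), and its adjusted P was 0.00761 without MP 3 and 0.0421 without APL 1. Kif2c (MCAK), a microtubule depolymerase, was the one kinesin with a value above 0, at 1522, 1540 and 1710 in MPs and 1585, 1788 and 1646 in APL (0.07, adjusted P = 0.438), and was -0.06 with libraries scaled to the same total.

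At the centromere and kinetochore, 4 of 7 genes were downregulated. Cenpa, which marks the centromere (chromosome 5, 30666902 to 30674826 on mm10), had 2365, 2412 and 3065 scaled fragments in MPs and 1257, 1332 and 1263 in APL, and 89.7 ± 11.1 and 43.9 ± 2.12 FPKM. The groups were far apart, with a log2 fold change of -1.02 ± 0.10 (adjusted P = 2.93e-05). The NDC80 complex, the microtubule grip of the kinetochore, was uneven. Spc24 (-0.65), Spc25 (-0.51) and Nuf2 (-0.21) were downregulated, whereas Ndc80 was at 1201, 1253 and 1326 in MPs and at 1286, 1307 and 1419 in APL, which overlapped (0.09, adjusted P = 0.337, and -0.05 with libraries scaled to the same total), and Nuf2 was no longer called when any APL library or MP 2 was left out (adjusted P between 0.0519 and 0.0996).

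Cenpe and Cenpf, which encode large kinetochore proteins, were uneven between MP libraries. Cenpe, a kinetochore kinesin, had 3138, 3410 and 2338 scaled fragments in MPs and 2822, 2555 and 2477 in APL (-0.16, adjusted P = 0.307), and Cenpf had 2609, 3013 and 1693 against 2571, 2407 and 2376 (0.05, adjusted P = 0.831). MP 3 was the lowest of the 6 libraries for both. Without MP 3, Cenpe was at -0.32 with an adjusted P of 0.00331 and Cenpf turned from 0.05 to -0.20 with an adjusted P of 0.0443, so both were then called lower.

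Of the 5 genes of spindle assembly and cytokinesis, 3 were downregulated. Nusap1, which bundles microtubules around chromosomes, had 2600, 2630 and 2863 scaled fragments in MPs and 1726, 1585 and 1680 in APL, with no overlap and a log2 fold change of -0.70 ± 0.07 (adjusted P = 2.99e-05). Its locus is shared with Oip5. Tpx2, the activator of Aurka, had 4291, 4445 and 4205 in MPs and 3538, 3644 and 3629 in APL (-0.26 ± 0.06, adjusted P = 0.00528, and -0.08 with an adjusted P of 0.275 after centring on the chromosome median), and Prc1, the central spindle crosslinker, was at -0.30. The cytokinesis genes gave no call. Ect2, the RhoA exchange factor, was at 1997, 2108 and 2090 in MPs and 2323, 2211 and 2199 in APL, higher in every APL library (0.12, adjusted P = 0.127, and -0.01 with libraries scaled to the same total). Anln (anillin) was at 2591, 2649 and 2470 against 2330, 2165 and 2410, lower in every APL library (-0.16, adjusted P = 0.0708), with an adjusted P of 0.0298 without MP 3.

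Chromosome condensation gave 3 downregulated genes of 7 (42.9%, near the 37.3% of all genes tested) and held the most abundant members. Top2a, the topoisomerase that untangles sister chromatids (chromosome 11, 98992947 to 99024189), had 16900, 17670 and 15920 scaled fragments in MPs and 10290, 9687 and 10090 in APL, with no overlap, a log2 fold change of -0.75 ± 0.08 and an adjusted P of 3.78e-05. The condensin I subunits were uneven. Ncaph, the kleisin that closes the ring, had 2125, 2172 and 2291 against 1297, 1367 and 1380 (-0.70 ± 0.07, adjusted P = 1.92e-05), and Ncapg, a HEAT repeat subunit whose locus is shared with Gm3414 and Lcorl, 2277, 2404 and 2335 against 1922, 1688 and 1808 (-0.37 ± 0.07, adjusted P = 0.00151). Ncapd2 (-0.15, adjusted P = 0.0723) and the ATPase Smc2 (-0.16, adjusted P = 0.148) did not pass the test. Both were called lower with libraries scaled to the same total (adjusted P = 0.00392 and 0.0471). After centring on the chromosome median they were at 0.048 and 0.023. Smc2 was called lower without MP 3 (-0.24, adjusted P = 0.00757).

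Smc4, the partner ATPase of Smc2, had 11840, 11790 and 10520 scaled fragments in MPs and 13680, 12040 and 13140 in APL. All APL values were above all MP values, but the difference of 0.19 ± 0.09 was not past the threshold (adjusted P = 0.089) and was -0.05 with libraries scaled to the same total and MP 3 left out. Mki67, which encodes the proliferation marker Ki-67 that coats mitotic chromosomes, had the highest mean of the list in scaled fragments, with 20000, 20180 and 13530 in MPs and 19460, 15660 and 16120 in APL. The APL values lay within the range of the MP values, with a log2 fold change of -0.05 ± 0.16 (adjusted P = 0.803), and the spread between MP libraries was the wider one. MP 3 was the lowest of the 6 libraries for Mki67. The gene gained no call when only MP 3 was left out. It was called lower with MP 3 left out and libraries scaled to the same total (-0.42, adjusted P = 0.00424).

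Per length, Top2a (92.0 ± 4.09 FPKM), Birc5, Cenpa and Pttg1 (86.8 ± 8.62) led the members in MPs and did not differ from one another beyond their spread, whereas in APL Smc4 (88.0 ± 5.93) and Pttg1 (87.5 ± 6.23) led, ahead of Bub3 (64.1 ± 4.18) and Birc5 (61.2 ± 3.02). Cenpf (5.54 ± 1.48 in MPs and 5.60 ± 0.32 in APL) and Cdc25c (8.13 ± 0.82 and 5.97 ± 0.49) were the lowest in MPs. Summed by role, the FPKM of the kinesins was 148.9, 158.1 and 157.9 in MPs and 121.9, 120.9 and 120.7 in APL, and that of the centromere and kinetochore genes was 187.9, 195.5 and 217.2 against 134.1, 136.9 and 130.4. The sums of the 3 anaphase regulators overlapped, at 165.7, 169.6 and 199.1 against 156.9, 174.3 and 157.9, and those of the other 7 roles did not overlap.

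Genes of DNA replication, which peak earlier in the cell cycle, were less clearly apart. Their summed FPKM was 2536, 2506 and 2817 in MPs and 2385, 2550 and 2506 in APL, which overlapped. Of the 39 genes, 19 (48.7%) were lower and 8 (20.5%) higher at any fold, against 37.3% and 29.7% of all genes tested. The 39 genes had a median log2 fold change of -0.22. Pola1, a catalytic subunit of DNA polymerase alpha, was at -0.83 and Cdc45, part of the replicative helicase, at 0.80. Of the genes called higher, Mcm5 (0.29), Cdt1 (0.62), Gins2 (0.58), Gins3 (0.62) and Gins4 (0.76) lie on chromosome 8. Mcm6 (0.50, chromosome 1) and Cdc45 (chromosome 16) were higher too. The 46 mitosis and spindle genes lie on chromosomes other than chromosome 8, and its part in the comparison was not tested. The ratio of summed mitotic to summed replication FPKM was 0.652, 0.678 and 0.641 in MPs and 0.586, 0.555 and 0.559 in APL, lower in every APL library. With 3 libraries a group, a two-sided exact permutation test cannot go below 0.1, and none was run on these sums.

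**Figure D3:**
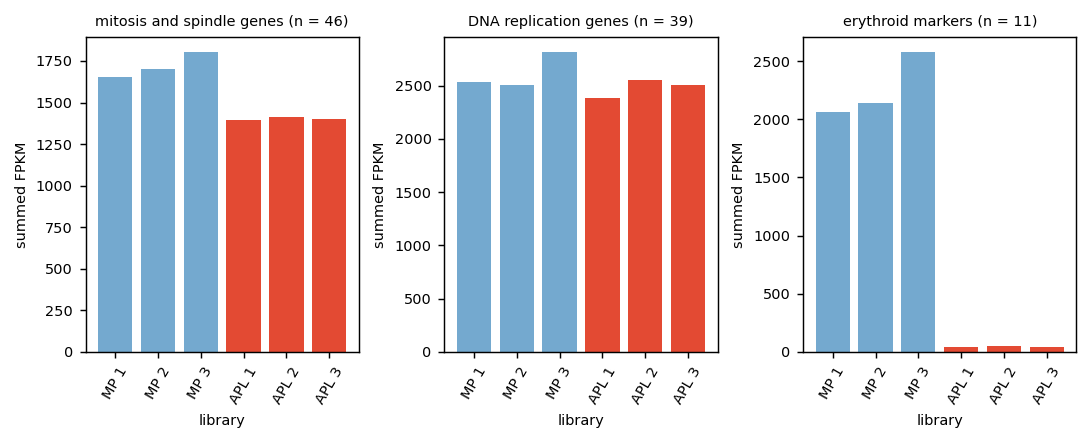
Summed FPKM in each library (bars from 0, blue for MP and red for APL) for the 46 mitosis and spindle genes, 39 DNA replication genes and 11 erythroid markers. The mitotic sums are 1653 to 1805 in MPs and 1398 to 1414 in APL, the replication sums overlap, and the erythroid sums fall from at least 2060 to at most 55.8.

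Other genes of mitosis, 104 in 8 lists with 102 tested, had 50 lower (49.0%), 15 higher (14.7%) and 37 not called, with a median of -0.23. Of all genes tested, 37.3% were lower and 29.7% higher, against which the counts of each list below are to be read. Mitotic entry control had 8 of 15 lower and 2 higher, with Arpp19, an inhibitor of the phosphatase PP2A (-0.90), and Pkmyt1, an inhibitory Cdk1 kinase (0.46), as the extremes. The anaphase-promoting complex and its partners had 8 of 17 lower and 2 higher. They ran from the ubiquitin-conjugating enzyme Ube2c (-0.79) to the subunit Anapc10 (0.38), a gene of chromosome 8. Outer kinetochore and checkpoint genes had 10 of 14 lower and 1 higher, with Casc5 (Knl1) at -0.92 and Mis12 at 0.26.

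The inner kinetochore list had 9 of 16 lower and 4 higher, and both of its extremes, Cenpp (-1.01) and the Cenpa chaperone Hjurp (0.89), lie at loci that several genes share. The other higher genes of that list lie on chromosome 8 (Cenpt and Mlf1ip) and on chromosome 15 (Cenpm). Cohesin had 6 of 13 lower (46.2%) and 2 higher, from Pds5a (-0.60) to the loader Nipbl (0.74). Nipbl and the other higher cohesin gene, Rad21 (0.56), lie on chromosome 15, whose genes had a median of 0.46. Spindle poles and other motors had 8 of 20 lower (40.0%, against 37.3% of all genes tested) and 1 higher. They ran from Hmmr (-0.70) to Ckap2 (0.47), a gene of chromosome 8. Condensin II had 1 lower (Ncapd3, -0.30) and 2 higher, Ncapg2 (0.68) and Ncaph2 of chromosome 15 (0.54). The cytokinesis list had 4 of 6 genes tested, with Racgap1, the partner of Kif23 and Ect2 and a gene of chromosome 15, at 0.79 and none lower. Transcription factors of mitotic genes, a list kept apart from these 8, were divided, with 6 of 18 lower (33.3%), 4 higher and a median of 0.00. They ran from E2f2 (-1.27) to the pocket protein Rbl2 (0.82), and Rbl2 and the higher Tfdp1 (0.55) lie on chromosome 8. The part of chromosomes 8 and 15 in these higher calls was not tested.

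**Figure D4:**
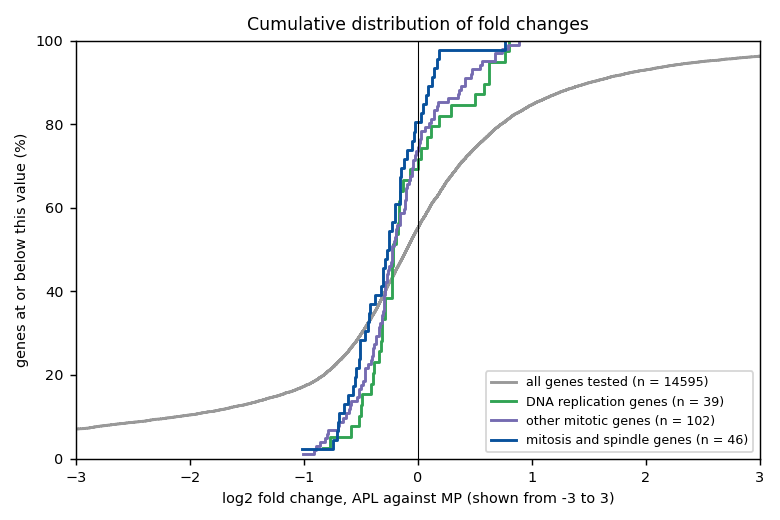
Cumulative share of genes (y axis, percent) at or below each log2 fold change, APL against MP (x axis, shown from -3 to 3), for all genes tested, the DNA replication genes, the other mitotic genes and the 46 mitosis and spindle genes. The 46 genes span a narrow band from -1.02 to 0.76 with a median of -0.27 and 37 of them below 0, where the curve of all genes is far wider.

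The libraries differed in one way that touched these genes. In MP 3 short transcripts stood above and long ones below MP 1 and MP 2: across the 46 genes the difference of MP 3 from the mean of MP 1 and MP 2 had a Pearson r of -0.865 with log2 transcript length, and across 8450 genes with a mean of at least 300 an r of -0.651. These are correlations across genes of the same few libraries and describe them only. MP 1 and MP 2 differed from each other with an r of 0.036. In the 16 shortest members, 1349 to 2405 bases, MP 3 was above the other two in all 16 and 12 were called lower in APL, whereas in the 15 longest, 3698 to 11137 bases, it was above in 2 and 5 were called lower. Among all genes tested, 37.3% were called lower. The median log2 fold change was -0.43 in the shortest and -0.16 in the longest group with all MP libraries, and -0.38 and -0.24 against MP 1 and MP 2 only. Without MP 3, 31 of the 46 were called lower and 1 higher, 5 and 1 of them over 1.5-fold. Of all genes in that fit, 2913 were lower and 3256 higher over 1.5-fold. The number of all genes called at any fold was not computed for it, so the 31 have no background here.

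**Figure D5:**
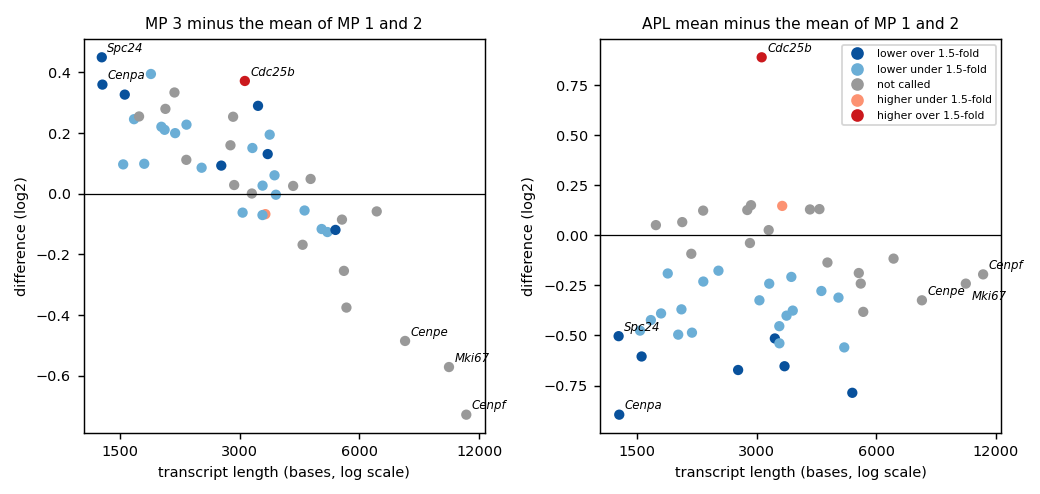
Transcript length of each of the 46 genes (x axis, bases, log scale) against the log2 difference of MP 3 from the mean of MP 1 and MP 2 (left) and of the APL mean from the mean of MP 1 and MP 2 (right), coloured by call. On the left the points fall with length (r = -0.865), with Cenpf, Mki67 and Cenpe lowest, and on the right they do not line up with length (r = 0.112).

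The libraries held between 21876288 and 25810097 scaled fragments, of which the 46 genes took 0.731, 0.760 and 0.655% in MPs and 0.575, 0.546 and 0.534% in APL. Kit, the sorting marker, was at 70.6 to 74.5 FPKM in MPs and 39.6 to 40.7 in APL, Ly6a (Sca-1) was at most 2.37 in any library, and Cd3e, Ms4a1 and Cd79a were at or near 0 in all 6. Of the 11 erythroid markers, the summed FPKM was 2060 to 2580 in MPs and 46.7 to 55.8 in APL, where Gata1, Klf1 and Epor were below 1, and the 6 megakaryocyte markers summed to 68.8 to 104 and 3.53 to 4.83. Car1 (1206 to 1677 FPKM) and Car2 (463.3 to 530.7) carried most of the erythroid sum in MPs, and Tfrc (28.9 to 32.5) most of that in APL. Slc4a1 and, of the megakaryocyte list, Gp1bb were not called, and Hbb-b1 was not tested. The other marker lists held changes in both directions, which their summed FPKM does not show (single values in brackets are log2 fold changes). The 8 sorted progenitor genes summed to 8788 to 9864 in MPs and 23130 to 27600 in APL, where Mpo, Elane, Ctsg and Ptprc were higher, Kit, Myb (-0.86) and Cd34 (-6.31) lower and Prtn3 not called. The 8 mature neutrophil genes summed to 11920 to 18540 and 45790 to 59680, a rise that S100a8 and S100a9 carried, whereas Ltf (-1.42) and Ngp (-1.46) were lower and Camp, Lcn2, Mmp8 and Mmp9 were not called. The 6 monocyte genes summed to 75.5 to 88.4 and 292.4 to 317.0, with F13a1, Cd68, Emr1 and Ccr2 higher and Csf1r (-1.81) and Ly86 (-4.74) lower. The 5 mast cell and basophil genes summed to 49.8 to 69.3 and 37.6 to 43.0, with Mcpt8 (1.13) higher and Cpa3 (-5.49), Gzmb, Ms4a2 and Fcer1a lower. The lymphoid sums, 260.3 to 280.1 and 240.9 to 266.0, were nearly all Nkg7, which was not called, whereas Dntt (-6.44) and Il7r (-1.54) were lower. Genes of these lists thus differed between the groups, and their part in the lower mitotic mRNA of the APL libraries was not tested.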

How the data were processed

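RNA from 3 libraries of normal MPs and 3 of c-Kit+ APL progenitors was sequenced, and the authors deposited 1 table of 16440 genes. Its FPKM values were normalized by the authors to transcript length and library size. Its fragment values are a deposited signal, estimated fragments that had been scaled per library, not whole reads, so count models were not used. The published methods describe FastQC and Cutadapt, STAR alignment against mm9, then counting by HTSeq-count. The submitters' processing notes name CASAVA 1.8, TopHat2 2.0.6 and mm10. Which tool made the table is not given in the sources used here. Its loci follow mm10 with starts counted from 0, and 1 was added.

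limma 3.58.1 in R 4.3.3 (lmFit, eBayes with a trend) was applied to log2(scaled fragments + 1) for genes that reached 1 in 3 or more of the 6 libraries. Genes were called at an adjusted P under 0.05, with and without a fold change over 1.5. The fit was run on simulated whole counts with known fold changes. They held no length effect like that of MP 3, so they do not test how the fit handles it. The lists were described by counts and medians. Samples were grouped by their titles. The members and lists were chosen with earlier results of these data known. Within each role, values by library are given for the member with the highest mean FPKM, those with the largest increase and decrease, and those whose call differs from most of the role, and of each other list the largest called increase and decrease are named. Mki67 was added after its values were seen. The comparison with transcript length was chosen after the values were seen. Transcript lengths came from the longest coding transcript in GENCODE vM1, on an earlier build and used for length only. The depth was 21876288 to 25810097 scaled fragments per library, and results were recomputed under 22 other settings fixed at the start and 3 chosen after seeing the data (the filter, pseudocount, scaling, unit, variance model, threshold, chromosome shift, block and each library left out), of which the 3 on the threshold gave counts only. The values of some marker genes are not reported here. Plots were made in Python 3.11.15 with matplotlib 3.10.9.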

Additional observations from a re-analysis of the deposited data

How the results depend on the processing

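The 46 fold changes were recomputed under 19 other settings fixed at the start and 3 chosen after seeing the data, which gave 1012 values. Of these, 894 kept their direction and their side of the threshold, 47 gained and 30 lost a call and 41 changed sign. In 18 genes neither the direction nor the call at any fold changed under any of these settings, and 17 of them were downregulated: Aurka, Birc5, Bub1, Ccnb2, Cdca8, Cenpa, Kif20a, Kif22, Kif23, Kif4, Mad2l1, Ncaph, Nusap1, Prc1, Spc24, Spc25 and Top2a, beside the upregulated Cdc25b. Relative to the median of all genes, the median of the 46 genes was -0.17 and between -0.29 and -0.13 under the alternatives.

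With each library scaled to the same total, the median of all genes moved from -0.10 to -0.228 and that of the 46 genes to -0.397. Of the 46, 14 were lower over 1.5-fold and 1 was higher at any fold. Over the 14595 genes tested, 4273 were then lower over 1.5-fold, against 3558 in the main fit. Incenp (-0.105), Kif2c (-0.058), Cenpf (-0.083), Ndc80 (-0.045) and Ect2 (-0.01) changed sign. Cdk1, Bub3, Espl1, Anln, Smc2 and Ncapd2 gained a call as lower. Voom weights gave -0.397, 14 and 1, with Incenp at -0.105, Kif2c at -0.058, Cenpf at -0.081, Ndc80 at -0.044 and Ect2 at -0.01. Of all genes, 4264 were lower over 1.5-fold with these weights. The same genes gained a call as lower, and Kif20b did too. The same total without MP 3 gave -0.438, 14 and 1, with Plk4 at -0.032, Incenp at -0.152, Kif2c at -0.052, Cenpf at -0.373, Ndc80 at -0.055, Ect2 at -0.049, Ttk at -0.028 and Smc4 at -0.048, of which Incenp (adjusted P = 0.0406) and Cenpf (0.00271) were called lower. Mki67 (-0.42, adjusted P = 0.00424), Cdk1, Bub3, Espl1, Kif20b, Cenpe, Anln, Smc2 and Ncapd2 also gained a call as lower. Of all genes, 3883 were lower over 1.5-fold under that setting. Quantile normalization gave a median of -0.326 and Incenp at -0.092. Median ratio scaling gave a median of -0.201 and 4 genes higher, with Aurkb at 0.038, Pttg1 at 0.031 and Mki67 at 0.014. Centring on well expressed genes gave -0.225, with Aurkb at 0.013 and Pttg1 at 0.006. Subtracting the chromosome median gave a median of -0.156, 1 gene lower over 1.5-fold and 7 higher at any fold, with Aurkb at 0.143, Pttg1 at 0.136, Anln at 0.028, Smc2 at 0.023, Ncapd2 at 0.048 and Mki67 at 0.008. Of all genes, 3015 were lower over 1.5-fold after that subtraction. FPKM put Pttg1 at 0.014 with a pseudocount of 0.1 and of 1, and the latter gave 2205 genes lower over 1.5-fold, against 3558. FPKM without MP 3 gave 3000 genes higher and 2140 lower, against 3167 and 3558, with Aurkb at 0.053, Pttg1 at 0.095 and Cenpf at -0.175. Without a filter on low values, or with one on all 6 libraries, 1 gene was higher at any fold. A fold change over 2, and limma's treat against 1.5-fold, left 1 gene lower (Cenpa) and 0 higher, where the fit at any fold called 2 higher. How many of all genes were called at any fold was not computed under these settings. Beyond the arithmetic of the settings, the cause of these shifts was not tested.

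Leaving out 1 library at a time gave 24 to 31 genes lower and 1 higher at any fold, 5 to 9 lower over 1.5-fold and a median of -0.282 to -0.244. Over all genes, these fits gave 2913 to 3507 lower over 1.5-fold. The log2 fold change then lay between -0.241 and 0.047 for Mki67, -0.195 and 0.221 for Cenpf (called lower without MP 3, adjusted P = 0.0443), -0.094 and 0.066 for Aurkb and -0.085 and 0.051 for Pttg1. Libraries with the same number had deviations from their group means that correlated with r = 0.214, 0.042 and 0.209 over 10310 genes. Those with different numbers had r between -0.345 and 0.2. The labels do not say whether the numbers pair the samples, and these values cannot settle it. The numbers were left out of the main fit. A fit that took the number as a replicate block had 27 genes lower and 1 higher at any fold, since Plk4 lost its call and Kif20b gained one, and 7 and 1 over 1.5-fold.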
